A study of Homo sapiens with 9 samples.

Results

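Double-stranded RNA is a common sign of viral infection, and synthetic RNA that is brought into cells can be bound by the same proteins. The genes described here are 10 genes of that system, measured in HCN-2 cells that had been transfected with synthetic RNA. They are the cytosolic sensors RIGI, IFIH1 and DHX58, the endosomal sensor TLR3, the adaptors MAVS and TICAM1, the kinases TBK1 and IKBKE, and the effectors EIF2AK2 and ADAR. Members were chosen by name: every row of the value table whose platform annotation gives exactly 1 gene symbol, and that symbol 1 of these 10, was taken. This gave 11 rows for the 10 genes, of 36176 rows with 1 symbol that cover 33616 genes. MAVS had 2 rows and every other member had 1.

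HCN-2 is an established human cortical neuronal cell line, and the arrays were made to see which transcripts change in it when either of 2 microRNA mimics is added. The 9 arrays fall into 3 groups of 3: cells given a miR-140-3p mimic, cells given a miR-126-5p mimic and cells given a scrambled control RNA. All of them received 3 μL of a 20 μM RNA together with the same lipid reagent in a serum-free mix, had culture medium added 6 h later and were harvested 24 h after transfection. Untransfected or reagent-only cells are not among the 9 arrays, so every difference below is between cells that were all given a synthetic RNA, and its uptake was not measured on the arrays. Whether the arrays of a group came from separate cultures is not given in the sources used here, and the p-values then measure only the spread between these samples, which may be technical.

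The 2 mimics are modelled on human microRNAs, which pair with messenger RNAs mainly through the seed, bases 2 to 8, which is in capitals below. RefSeq places miR-140-3p at chr16:69933142-69933162 and miR-126-5p at chr9:136670616-136670636, both on the plus strand of GRCh38.p14. They are shown because they are the only designed difference between the 2 mimic groups.
hsa-miR-140-3p: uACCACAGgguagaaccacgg
hsa-miR-126-5p: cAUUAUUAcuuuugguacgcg
The seeds differ. The sequence of the scrambled control and any chemical modification of the 3 RNAs were not analysed here.

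In cells, RIG-I and MDA5 bind viral RNA in the cytosol and signal through MAVS on the mitochondrial surface. TLR3 binds double-stranded RNA in endosomes and signals through TRIF, the product of TICAM1. Both routes meet at the kinases TBK1 and IKK epsilon, which activate the transcription factors IRF3 and IRF7 and so switch on interferon genes. PKR, encoded by EIF2AK2, stops translation when it binds double-stranded RNA, and ADAR edits adenosine to inosine in such RNA and so marks the cell's own transcripts as self. Several of these genes are themselves switched on by interferon, which makes the system amplify itself. Neurons, glia and fibroblasts all have parts of it.

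As a check of the label, neuronal markers were mostly dim in these cells. Only 4 of 14 measured neuronal genes (among them NEFM and MAP2) had a mean above the median of all rows with 1 symbol, while RBFOX3, SYN1, SNAP25, STMN2, ELAVL3, ELAVL4 and DCX did not. Of 7 measured fibroblast and mesenchymal markers 6 were above it, including COL1A2, DCN and LUM. Above it too were 4 of 6 neural progenitor markers, 3 of 6 astrocyte markers and 2 of 6 endothelial markers. Of the microglia and leukocyte markers 4 of 8 were above it, and of the dendritic cell markers 1 of 6. The mean of the neural progenitor markers ran from 9.29 to 9.61 per array in the control. The mean of the fibroblast and mesenchymal markers ran from 14.99 to 15.22 per array in the control, 15.04 to 15.24 in miR-140-3p cells and 14.93 to 15.02 in miR-126-5p cells. The mean of 8 microglia and leukocyte markers ran from 6.36 to 6.50, 6.32 to 6.46 and 6.17 to 6.33, and that of 6 dendritic cell markers from 4.51 to 4.74, 4.62 to 4.94 and 4.42 to 4.67. Of all marker lists 1 gene, CD68, was called, and it was lower in miR-126-5p cells (difference -1.09, adjusted p = 0.0156 in limma). The part of these markers in the results below was not tested. The medians of the rows with 1 symbol were 5.61 to 5.74 per array and the background control rows had means of 3.67 to 3.89.

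Values are the deposited log2 values, on which 1 unit is a doubling of the signal. They were compared with limma in 1 fit over the 9 arrays, with Benjamini-Hochberg adjustment over all 36176 rows, and a gene is said to have fallen or risen only at an adjusted p under 0.05. Fallen means lower than in the scrambled control. Without untransfected cells, a gene lowered by the mimics cannot be told apart from one raised by the control RNA. The 2 comparisons against the control share the same 3 control arrays and are therefore not independent of each other. In bulk RNA, fewer cells that express a gene and less RNA per cell cannot be told apart.

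RIGI, IFIH1, DHX58, TLR3 and EIF2AK2 fell with each mimic, and no member rose. With miR-140-3p 5 of the 10 members fell, where 0.229% of all rows fell and 0.00829% rose. With miR-126-5p the same 5 fell, where 0.354% of all rows fell and 0.0249% rose. The median log2 difference of the 10 members was -1.48 in miR-140-3p cells and -1.80 in miR-126-5p cells, and over all rows it was -0.02 and -0.04. All of these calls rest on limma's moderation of the variance, which borrows spread from the other rows: without it 0 members passed in either comparison, at adjusted p values of 0.214 to 0.331 for these 5 genes in miR-140-3p cells and 0.123 to 0.204 in miR-126-5p cells. The mean of the 10 members was 11.54, 12.05 and 12.16 in the control arrays, 10.67, 10.46 and 10.48 in miR-140-3p cells and 10.16, 10.15 and 10.70 in miR-126-5p cells.

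At the looser threshold of the study's methods, which joins an unadjusted p below 0.05 to a minimum fold change, 7 of 10 members were lower with each mimic, the 5 above with ADAR and IKBKE, and 0 were higher. Over all rows 5.16% were lower and 3.35% higher in miR-140-3p cells, and 6.83% were lower and 3.57% higher in miR-126-5p cells. Every miR-140-3p array lay below every control array for 6 of 10 members, against 7.48% of all rows, and every miR-126-5p array did so for 7 of 10 members, against 11% of all rows.

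**Figure D1:**
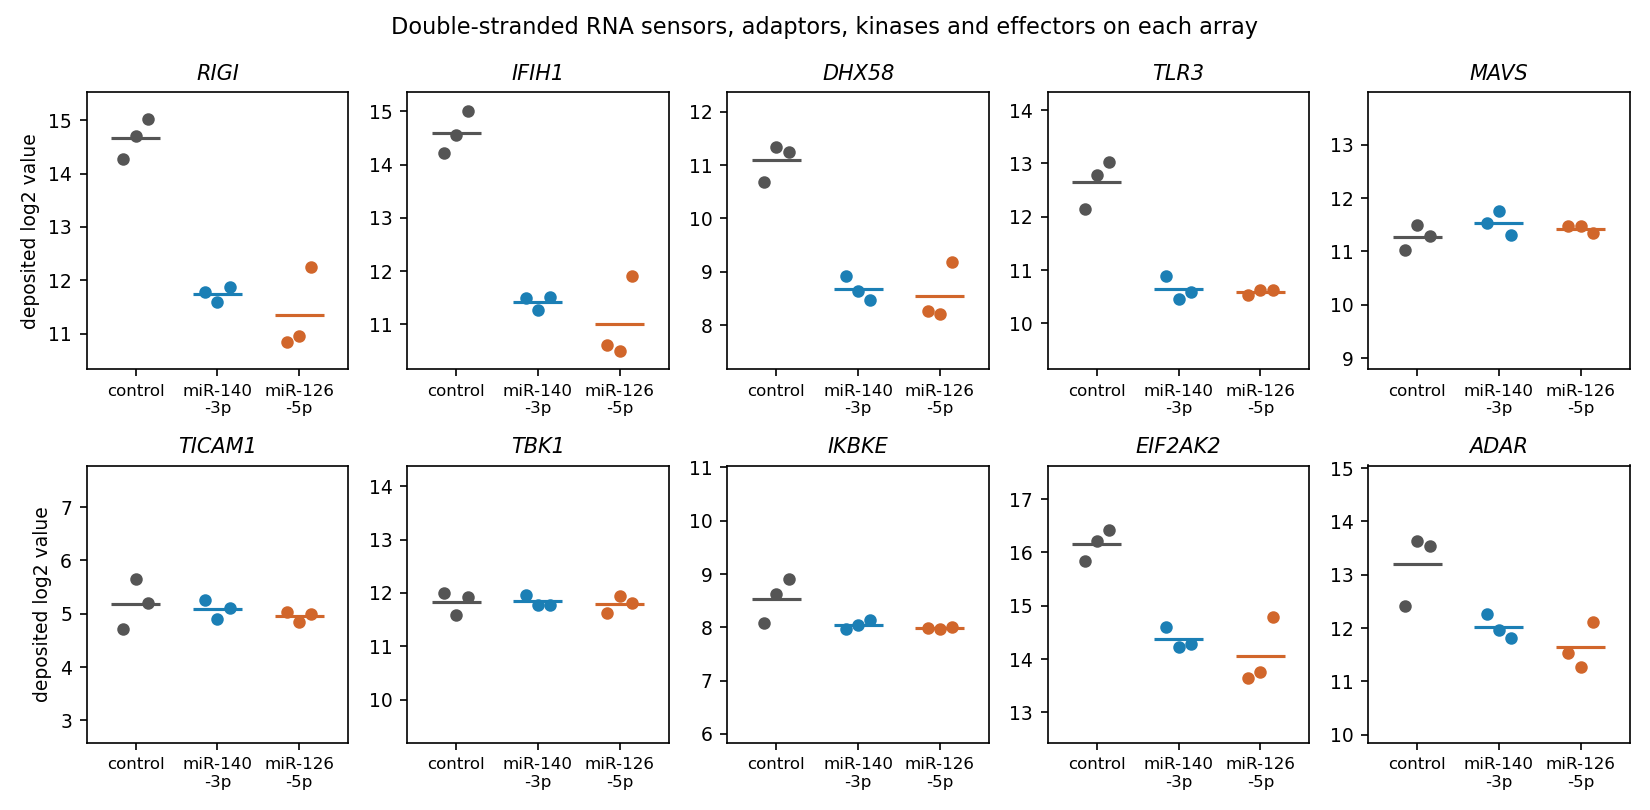
Deposited log2 value (vertical axis) of each of the 10 members on each of the 9 arrays, by transfection group. Points are arrays in replicate order and bars are group means, and every panel spans the same number of log2 units around its own centre. RIGI, IFIH1, DHX58, TLR3 and EIF2AK2 stand apart between control and mimic arrays, while MAVS, TICAM1 and TBK1 overlap.

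Promoter windows of the members were searched for the letters that interferon-activated factors are known to bind. RefSeq windows of 250 bases before and 50 bases from the transcript start were given for 9 of the 10 members, with 3 windows for ADAR and none for DHX58. The core of the interferon-stimulated response element was written as GAAA, any 2 bases, GAAA, on either strand. It was present in 3 of the 9 members, IFIH1, TLR3 and EIF2AK2, and in 4.38% of all 27305 genes with a window (3.57% of all 35116 windows). RIGI had a close form with 1 base between the repeats, which 3.87% of all genes (3.12% of windows) hold, and that form was searched only after the RIGI window had been seen. The gamma activated site, TTC, any 3 bases, GAA, was present in TLR3 alone among the members and in 9.38% of all genes (7.66% of windows). Windows of MAVS, TICAM1, TBK1, IKBKE and ADAR held none of the 3.

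The 4 windows with a match are printed 5′ to 3′ on the strand of the gene, in GRCh38.p14. Those of IFIH1, TLR3 and EIF2AK2 hold the core, and that of RIGI only the form searched after its window had been seen. Whether such matches go with a fall was not tested. Capitals mark the GAAA repeats, which read TTTC where the match is on the opposite strand. RIGI is at chr9:32526147-32526446, minus strand. IFIH1 is at chr2:162318635-162318934, minus strand. TLR3 is at chr4:186068906-186069205, plus strand. EIF2AK2 is at chr2:37156931-37157230, minus strand.
RIGI: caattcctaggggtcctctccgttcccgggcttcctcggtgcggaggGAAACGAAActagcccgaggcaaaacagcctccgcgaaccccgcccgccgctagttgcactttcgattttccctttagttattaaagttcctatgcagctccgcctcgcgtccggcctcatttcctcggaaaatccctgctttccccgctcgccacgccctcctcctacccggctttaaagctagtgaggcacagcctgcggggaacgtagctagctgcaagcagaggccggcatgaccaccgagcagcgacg
IFIH1: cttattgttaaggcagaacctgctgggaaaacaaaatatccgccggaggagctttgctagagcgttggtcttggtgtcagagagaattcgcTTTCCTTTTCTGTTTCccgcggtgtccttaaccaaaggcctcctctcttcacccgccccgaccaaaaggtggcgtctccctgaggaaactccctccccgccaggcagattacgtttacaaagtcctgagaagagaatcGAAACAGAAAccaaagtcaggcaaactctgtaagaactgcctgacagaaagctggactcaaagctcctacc
TLR3: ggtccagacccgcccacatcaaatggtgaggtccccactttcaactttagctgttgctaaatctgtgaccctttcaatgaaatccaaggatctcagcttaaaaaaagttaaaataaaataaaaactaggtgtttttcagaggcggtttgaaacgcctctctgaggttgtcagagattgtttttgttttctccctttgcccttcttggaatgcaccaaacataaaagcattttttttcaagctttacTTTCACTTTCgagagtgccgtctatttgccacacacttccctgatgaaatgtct
EIF2AK2: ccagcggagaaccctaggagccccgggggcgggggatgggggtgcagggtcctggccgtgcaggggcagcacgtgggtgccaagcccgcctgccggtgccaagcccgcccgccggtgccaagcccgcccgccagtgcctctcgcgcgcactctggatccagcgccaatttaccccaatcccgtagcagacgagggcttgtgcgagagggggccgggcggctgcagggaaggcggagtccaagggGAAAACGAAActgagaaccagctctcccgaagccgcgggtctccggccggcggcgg
In RIGI the match lies at bases -203 to -195 from the start. In IFIH1 a pair of overlapping matches on the opposite strand lies at -159 to -150 and -153 to -144, and one more on the gene's own strand at -21 to -12. In TLR3 and EIF2AK2 the match lies across the start itself, at -4 to 6 and -6 to 4, with the first transcribed base counted as 1. The gamma activated sites of TLR3 are at -178 to -170 and -50 to -42. These are matches of letters, which show neither binding nor a cause, and the absence of a match says only that these letters are not in this window.

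**Figure D2:**
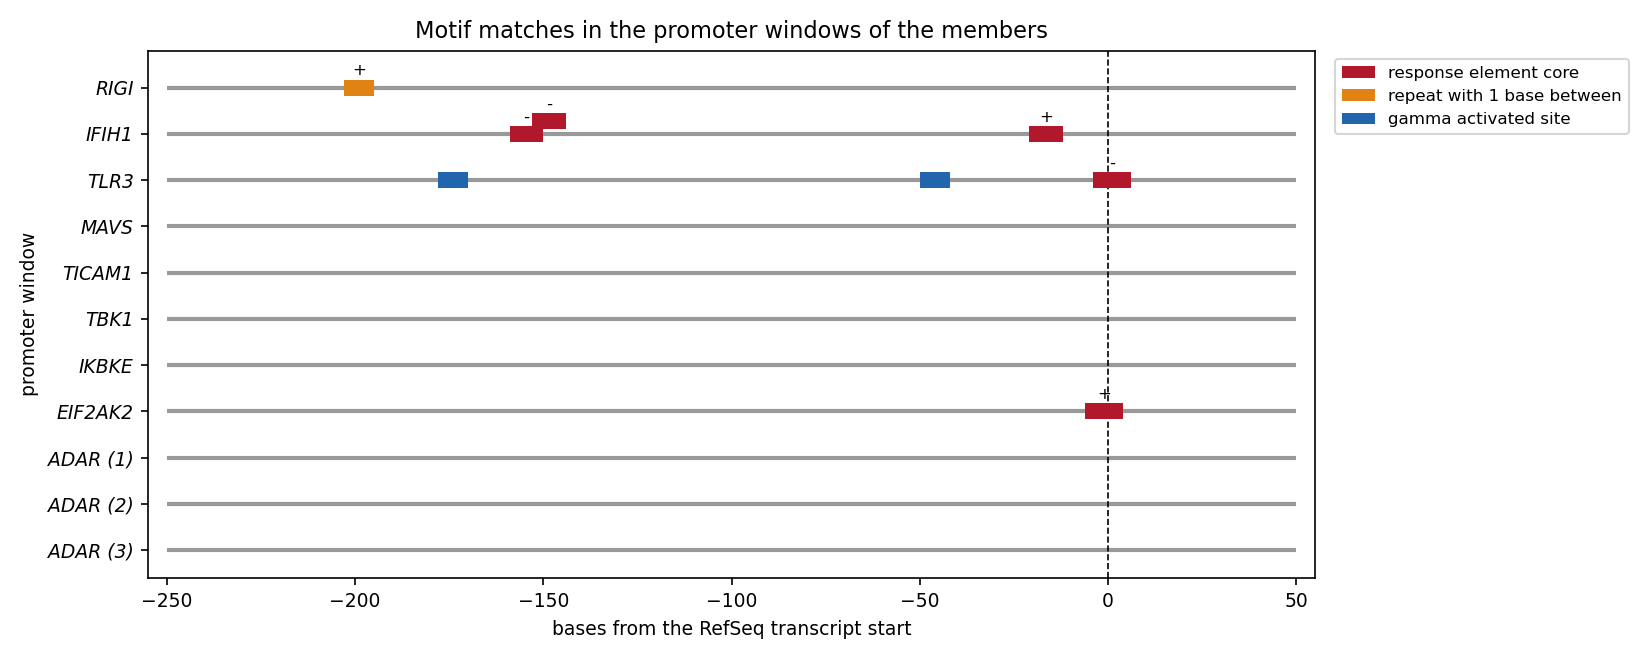
Position of each motif match (coloured bars) in the 11 promoter windows of 9 members, in bases from the RefSeq transcript start (horizontal axis, dashed line at the start). The strand is printed above matches of the GAAA repeats and not above gamma activated sites. Matches lie in the windows of RIGI, IFIH1, TLR3 and EIF2AK2, and those of MAVS, TICAM1, TBK1, IKBKE and ADAR have none.

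RIGI encodes RIG-I, the cytosolic helicase that binds short double-stranded RNA with a triphosphate at its end. Its log2 value was 14.27, 14.70 and 15.02 in the control arrays, 11.77, 11.60 and 11.87 in miR-140-3p cells and 10.84, 10.95 and 12.24 in miR-126-5p cells. All 6 mimic arrays were below all control arrays, and miR-126-5p array 3 was the highest of the 6. RIGI fell by 2.92 in miR-140-3p cells (SE 0.32, 95% interval -3.62 to -2.22, adjusted p = 0.00129), a 7.57-fold lower level. It fell by 3.32 in miR-126-5p cells (SE 0.32, 95% interval -4.02 to -2.63, adjusted p = 0.000384), a 10-fold lower level.

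IFIH1 encodes MDA5, the related helicase that assembles along long double-stranded RNA. The log2 value of IFIH1 was 14.22, 14.55 and 15.01 in the control, 11.50, 11.27 and 11.52 in miR-140-3p cells and 10.62, 10.51 and 11.91 in miR-126-5p cells. The order of the arrays was close to that of RIGI, and miR-126-5p array 3 was again the highest of the mimic arrays. IFIH1 had the largest fall among the members in both comparisons, with a difference of -3.16 in miR-140-3p cells (SE 0.32, 8.96-fold, adjusted p = 0.000888) and of -3.58 in miR-126-5p cells (SE 0.32, 12-fold, adjusted p = 0.00024). By unadjusted p IFIH1 ranked 15 of all rows in the first comparison and 14 in the second.

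DHX58 encodes LGP2, a helicase of the same family, which lacks the signaling domains of the other two and modulates what they do. DHX58 had log2 values of 10.69, 11.33 and 11.24 in the control, 8.92, 8.63 and 8.46 in miR-140-3p cells and 8.27, 8.21 and 9.18 in miR-126-5p cells. Control and mimic arrays did not overlap, with a gap of 1.77 between the lowest control array and the highest miR-140-3p array and of 1.51 for miR-126-5p. DHX58 fell in both, with a difference of -2.41 in miR-140-3p cells (SE 0.27, 5.32-fold, adjusted p = 0.00129) and of -2.53 in miR-126-5p cells (SE 0.27, 5.78-fold, adjusted p = 0.000681).

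TLR3, the receptor that reads double-stranded RNA inside endosomes, had log2 values of 12.14, 12.78 and 13.02 in the control, 10.88, 10.46 and 10.58 in miR-140-3p cells and 10.54, 10.63 and 10.62 in miR-126-5p cells. The miR-126-5p arrays lay within 0.09 of each other, and here array 3 did not stand apart. TLR3 fell by nearly the same amount in both comparisons. The difference was -2.01 in miR-140-3p cells (SE 0.22, 4.02-fold, adjusted p = 0.00128) and -2.05 in miR-126-5p cells (SE 0.22, 4.14-fold, adjusted p = 0.000762).

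Neither adaptor passed the test. MAVS, the mitochondrial membrane protein through which RIG-I and MDA5 signal, had log2 values of 11.03, 11.49 and 11.29 in the control, 11.54, 11.75 and 11.31 in miR-140-3p cells and 11.48, 11.47 and 11.34 in miR-126-5p cells. The 3 groups overlapped. The difference was 0.26 in miR-140-3p cells (95% interval -0.12 to 0.65, adjusted p = 0.719) and 0.17 in miR-126-5p cells (95% interval -0.22 to 0.55, adjusted p = 0.794), so a fall of the size seen for any of the 5 members that fell lies outside both intervals.

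That row was the brighter of the 2 MAVS rows and carries no Entrez identifier in the platform annotation. The other MAVS row, which carries one, had values of 9.37, 9.53 and 9.87 in the control, 10.27, 9.50 and 10.00 in miR-140-3p cells and 9.25, 9.62 and 9.45 in miR-126-5p cells. It gave 0.33 in miR-140-3p cells (adjusted p = 0.716) and -0.15 in miR-126-5p cells (adjusted p = 0.862). The rows therefore had opposite signs in miR-126-5p cells, and neither passed the test.

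TICAM1 encodes TRIF, the adaptor of TLR3. It was dim, with log2 values of 4.71, 5.65 and 5.21 in the control, 5.26, 4.91 and 5.10 in miR-140-3p cells and 5.04, 4.85 and 5.00 in miR-126-5p cells. All mimic arrays lay inside the range of the control arrays. The difference was -0.10 in miR-140-3p cells (95% interval -0.58 to 0.38) and -0.23 in miR-126-5p cells (95% interval -0.70 to 0.25), with adjusted p = 0.932 and 0.77. Signals this near the background understate a change in RNA, and the intervals do not allow for that.

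TBK1, the kinase that both routes share and that phosphorylates IRF3, had the smallest differences from the control among the members. Its log2 values were 12, 11.58 and 11.93 in the control, 11.97, 11.78 and 11.78 in miR-140-3p cells and 11.63, 11.94 and 11.81 in miR-126-5p cells, and the 3 groups overlapped. The difference was 0.01 in miR-140-3p cells (95% interval -0.36 to 0.38, adjusted p = 0.995) and -0.04 in miR-126-5p cells (95% interval -0.41 to 0.33, adjusted p = 0.959).

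IKBKE encodes IKK epsilon, the inducible relative of TBK1. The values of IKBKE were 8.09, 8.62 and 8.90 in the control, 7.97, 8.04 and 8.13 in miR-140-3p cells and 7.99, 7.97 and 8.01 in miR-126-5p cells. The first control array lay among the mimic arrays and the other two lay above all of them. The difference was -0.49 in miR-140-3p cells (SE 0.20, unadjusted p = 0.0287, adjusted p = 0.536). With miR-126-5p the difference was -0.55 (SE 0.20, unadjusted p = 0.0168, adjusted p = 0.363), and neither passed over all rows.

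EIF2AK2 encodes PKR, the kinase that phosphorylates the translation factor eIF2 alpha. Its log2 values were 15.84, 16.22 and 16.42 in the control, 14.61, 14.22 and 14.29 in miR-140-3p cells and 13.64, 13.75 and 14.79 in miR-126-5p cells. All mimic arrays lay below all control arrays. EIF2AK2 fell, with a difference of -1.79 in miR-140-3p cells (SE 0.28, 3.45-fold, adjusted p = 0.0158) and of -2.10 in miR-126-5p cells (SE 0.28, 4.28-fold, adjusted p = 0.00355). The first of these calls was the least firm of the 10 calls on the members: it was lost without control array 2 or 3 or miR-140-3p array 2 or 3, at adjusted p values from 0.0926 to 0.12, and when every row of the table was tested.

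ADAR, the editing enzyme, had log2 values of 12.42, 13.63 and 13.54 in the control, 12.27, 11.97 and 11.81 in miR-140-3p cells and 11.53, 11.27 and 12.12 in miR-126-5p cells. The groups did not overlap, but the first control array was only 0.15 above the highest miR-140-3p array and 0.30 above the highest miR-126-5p array. The difference was -1.18 in miR-140-3p cells (SE 0.31, adjusted p = 0.277) and -1.55 in miR-126-5p cells (SE 0.31, adjusted p = 0.0643), and neither passed. Without control array 1 the differences were -1.57 and -1.94, and both passed, at adjusted p = 0.0227 and 0.00343. With other arrays left out they were as small as -0.96 and -1.34, at adjusted p in limma of up to 0.622 and 0.319. The single row of ADAR gives 1 level for its transcripts, which include an interferon-inducible long form and a constitutive short form.

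**Figure D3:**
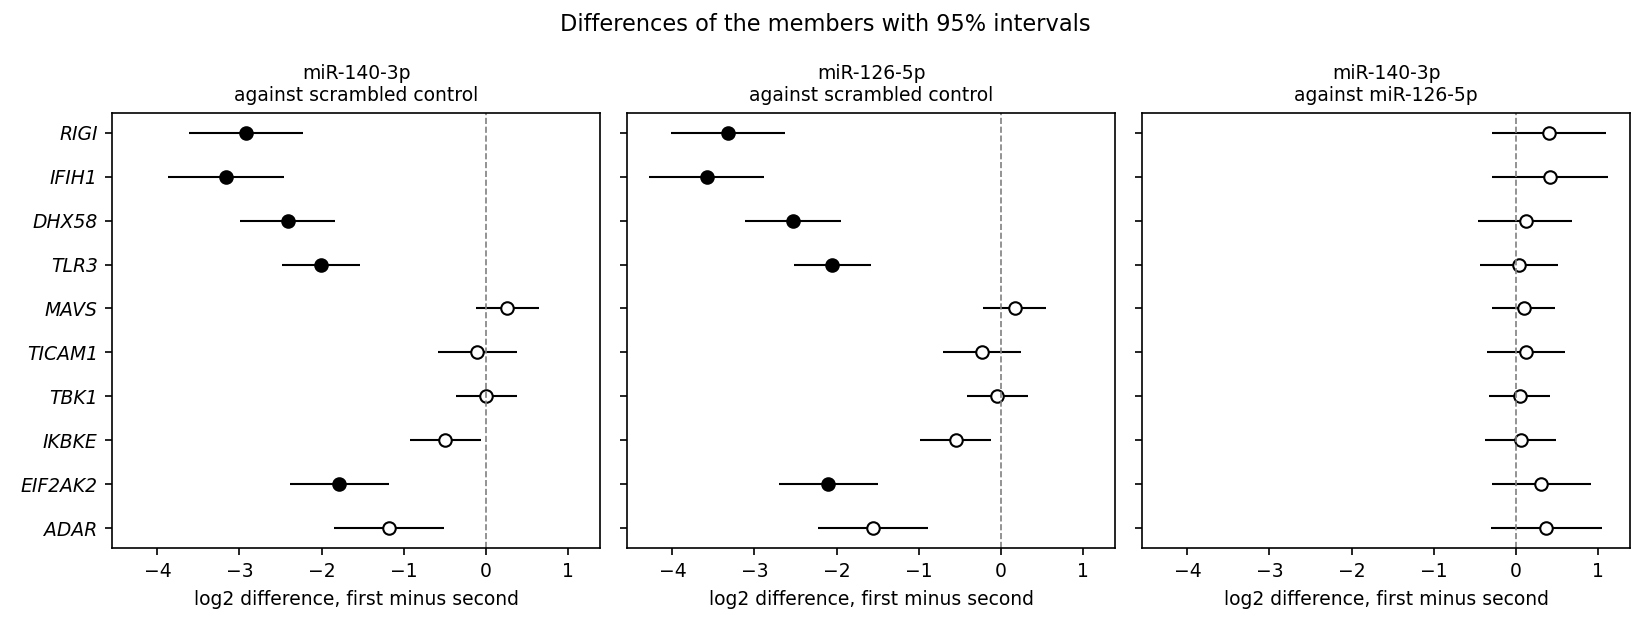
Log2 difference (horizontal axis, first group minus second) of each member in the 3 comparisons, with 95% intervals. Filled points passed an adjusted p of 0.05 over all rows, which holds for 5 members in each comparison against the control and for none between the mimics.

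None of the 10 members passed the test between the mimics. All 10 differences were positive, from 0.04 for TLR3 to 0.42 for IFIH1, which means that each mean was somewhat higher in miR-140-3p cells, but the lowest adjusted p among the members was 0.733 in limma. Of all rows 0% passed the adjusted p, with a lowest adjusted p of 0.392, while 3279 rows had an unadjusted p under 0.05. At the looser threshold 0 members passed, against 5.07% of all rows higher and 3.99% lower in miR-140-3p cells than in the miR-126-5p cells.

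The intervals show what these 3 arrays a group could and could not resolve. For RIGI the difference between the mimics was 0.40 with a 95% interval from -0.29 to 1.10, for IFIH1 0.42 with one from -0.29 to 1.12, and for ADAR 0.37 with one from -0.30 to 1.05. For TLR3 it was 0.04 with an interval from -0.43 to 0.52. A difference of 1 log2 unit, or a doubling, is thus inside the interval for RIGI, IFIH1 and ADAR and outside it for TLR3. The second MAVS row, at 0.48, had an unadjusted p of 0.0456 and an adjusted p of 0.547 in limma.

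Some members also moved together from array to array within a group, and others did not. Control array 1 was the lowest of its group for 9 of 10 members, all but TBK1. Array 3 of the miR-126-5p group was the highest of its group for 6 of 10 members, and array 1 of the miR-140-3p group for 6 of 10. Against the mean of the other two arrays of its group, miR-126-5p array 3 was 1.34 higher for RIGI, 1.35 for IFIH1, 1.10 for EIF2AK2, 0.94 for DHX58 and 0.72 for ADAR, but 0.04 higher for TLR3 and 0.03 for IKBKE. Control array 1 was 1.16 below the mean of the other two for ADAR and 0.76 below it for TLR3.

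The correlation of the deviations from the group means, over the 9 arrays and as a description, was 0.99 for RIGI and IFIH1, and it ran from 0.87 to 0.99 over the 6 pairs among RIGI, IFIH1, DHX58 and EIF2AK2, a set chosen after these values were seen. Over all 45 pairs of members the median was 0.47 and the lowest -0.62, and MAVS had -0.12 with RIGI and -0.15 with IFIH1. It was 0.46 for TLR3 with RIGI, and 0.83 for TLR3 with IKBKE. With TBK1 the 9 pairs ran from -0.62 to 0.09. All members share the same 9 arrays, so these values also hold whatever differed between arrays as a whole. For RIGI, IFIH1, DHX58 and EIF2AK2 the largest deviation was that of miR-126-5p array 3, so their high correlations lean on a single array. With both control array 1 and miR-126-5p array 3 left out, a choice made after seeing the data, the difference of RIGI was -3.12 in miR-140-3p cells and -3.97 in miR-126-5p cells, 6 of 10 members fell in each comparison, where 0.318% and 0.605% of all rows fell, and ADAR was the added member.

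**Figure D4:**
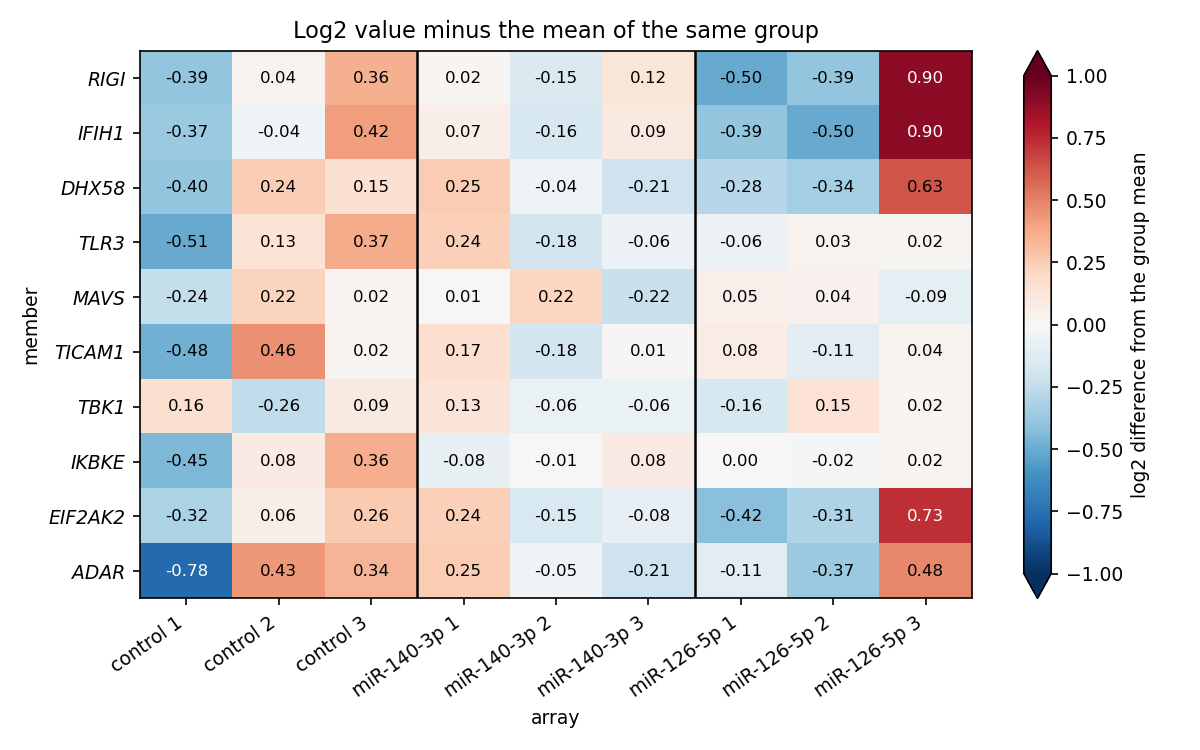
Log2 value of each member on each array minus the mean of its own group (colour and printed number), with the members in rows and the 9 arrays in columns. Control array 1 is below its group mean for 9 members, and miR-126-5p array 3 is well above its group mean for RIGI, IFIH1, DHX58, EIF2AK2 and ADAR but not for TLR3, MAVS, TICAM1, TBK1 or IKBKE.

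Genes with the most similar pattern over the 9 arrays were sought among all rows, by Pearson correlation and as a description. For RIGI they were IFIH1 (0.999), USP41P (0.997), RTP4 (0.997), SAMD9L (0.996) and IFIT1 (0.995), and over the 6 mimic arrays alone these correlations were 0.96 to 0.99. Among those 6 arrays RIGI was highest on miR-126-5p array 3 (12.24) and lowest on arrays 1 and 2 of that group (10.84 and 10.95). The correlations over the mimic arrays therefore lean on that spread within 1 group. USP41P is a pseudogene close in sequence to USP18, so its row may also read that gene. For IFIH1 they were RIGI, USP41P, TAP1, RTP4 and SAMD9L. RTP4, SAMD9L, IFIT1 and TAP1 are genes known to respond to interferon.

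For TLR3 the most similar genes were MX2 (0.996), RNF213 (0.993), MOV10 (0.99), TRIM22 (0.989) and APOL6 (0.987). Over the 6 mimic arrays alone they were lower, from 0.40 for APOL6 to 0.83 for MX2. MX2 and TRIM22 are interferon-induced antiviral proteins. For IKBKE the first was KIF2A at 0.99, with 0.67 over the mimic arrays, and PARP8 at 0.96 turned to -0.39 there. For MAVS it was FREM3 at 0.981, and 0.95 over the mimic arrays. With 36176 rows and 9 arrays in 3 groups, high correlations arise wherever genes share the step between control and mimic cells. They can also arise without that step, as the highest values picked from so many rows over so few arrays. MAVS passed no test against the control.

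Genes of the same pathways were then counted from 11 lists written from general knowledge, with earlier results of these data known. The counts are therefore a description and no independent support. Of 136 listed genes 122 were measured, and 9 of them fell in miR-140-3p cells and 13 in miR-126-5p cells, and 0 rose. Of all rows 0.229% fell and 0.00829% rose in miR-140-3p cells, and 0.354% fell and 0.0249% rose in miR-126-5p cells. The same shares stand beside the counts of each list below. Without control array 2 or 3, or without miR-140-3p array 2 or 3, the count of pathway genes in miR-140-3p cells dropped to 2 or 3. Without moderation of the variance that count was 0 in both comparisons. With each of the 9 arrays left out in turn, only IFIT3 and OAS3 of the genes called in miR-140-3p cells passed every time. Of those called in miR-126-5p cells 9 of 13 did, and OASL, TRIM38, CTSS and ADARB1 did not, at adjusted p values of up to 0.195 in limma. The median log2 difference of the 122 measured genes was -0.11 in miR-140-3p cells and -0.20 in miR-126-5p cells, well short of the medians of the 10 members.

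The 2-5A synthetases, which like PKR are switched on by double-stranded RNA, make the signal that activates RNase L. All 4 measured genes of the family, the synthetases OAS1, OAS2 and OAS3 and the related OASL, which lacks the synthetase activity, fell in each comparison. OAS1 had log2 values of 14.37, 15.24 and 15.63 in the control, 10.33, 8.83 and 10.03 in miR-140-3p cells and 6.70, 7.04 and 10.46 in miR-126-5p cells. As for RIGI and IFIH1, miR-126-5p array 3 was the highest of its group. The difference of OAS1 was -5.35 in miR-140-3p cells (SE 0.77, adjusted p = 0.00977) and -7.02 in miR-126-5p cells (SE 0.77, adjusted p = 0.000972). In the same order OAS2 had -4.67 and -5.82, OAS3 -4.28 and -4.82, and OASL -3.39 and -3.37. Without miR-126-5p array 3 the difference in miR-126-5p cells was -8.21 for OAS1 and -6.90 for OAS2, and without array 1 it was -6.33 and -5.21. For OASL, whose control arrays were 7.51, 9.85 and 10.06, it was -4.20 and -4.18 without control array 1. Without control array 3 it was -2.93 and -2.91. With each of the 9 arrays left out in turn, the OASL call was lost 5 times in miR-140-3p cells and 2 times in miR-126-5p cells. In miR-140-3p cells the calls of OAS1 and OAS2 were lost 3 and 4 times.

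Around the cytosolic sensors, 1 of 15 measured cofactors and ubiquitin regulators fell: DDX60, a helicase that has been linked to RIG-I signaling, had a difference of -1.89 in miR-140-3p cells and -2.13 in miR-126-5p cells. Its call in miR-140-3p cells was lost with 3 of the 9 arrays left out singly, at adjusted p of up to 0.0728 in limma. PPP1CC, G3BP1 and PPP1CA, the brightest of the others, lay between -0.42 and 0.14. Of 18 measured genes of the MAVS complex and its regulators 1 fell, IFIT3, with -3.18 and -3.62. IFIT3 is an interferon-induced protein that has been described as bridging MAVS and TBK1. TNFAIP3, PCBP1 and SMURF1 did not pass in either comparison, with differences from -0.28 to 0.06. None of 11 measured partners of TBK1 and IKK epsilon fell, among them DDX3X, SQSTM1 and CALCOCO2.

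On the TLR3 route UNC93B1, the chaperone that carries the receptor to endosomes, fell in both comparisons, with -1.67 and -2.04. Its call in miR-140-3p cells was lost with 4 of the 9 arrays left out singly, at adjusted p of up to 0.111 in limma. TRIM38, a regulator of TLR3 signaling, fell by 1.23 in miR-126-5p cells (adjusted p = 0.0161) and had a difference of -1.02 in miR-140-3p cells (adjusted p = 0.0808). CTSS, a lysosomal protease, fell by 1.13 in miR-126-5p cells (adjusted p = 0.0215), with -0.84 for miR-140-3p (adjusted p = 0.169). Of 15 measured genes of this route 1 fell in miR-140-3p cells and 3 in miR-126-5p cells. MYD88, the adaptor of the other endosomal receptors, fell by 1.85 in miR-126-5p cells (adjusted p = 0.00262) and had a difference of -0.78 in miR-140-3p cells (adjusted p = 0.387). The difference of MYD88 between the mimics was 1.07 (adjusted p = 0.427), so it was not shown to differ between them.

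Of 8 measured transcription factors downstream 1 fell, IRF7, the interferon-induced partner of IRF3, with -1.51 in miR-140-3p cells and -1.82 in miR-126-5p cells. Its log2 values were 6.15, 6.64 and 6.54 in the control and at most 5.60 on any mimic array. With each of the 9 arrays left out in turn, its call in miR-140-3p cells was lost 6 times, at adjusted p of up to 0.155 in limma. ATF2, JUN and NFKB1, the brightest of the list, did not pass in either comparison. IRF3 and IFNB1 are named although the rule for naming genes did not take them, and they were chosen after their values were seen. IRF3 was dim and differed by -0.20 and -0.39 (adjusted p = 0.877 and 0.652). IFNB1 had values of 4.66, 4.03 and 5.18 in the control, 4.08, 4.26 and 4.14 in miR-140-3p cells and 3.93, 3.52 and 4.13 in miR-126-5p cells. It differed by -0.46 and -0.76 (adjusted p = 0.655 and 0.33), and none of 7 measured interferons passed. The interferon signals were dim as well, which understates a change in RNA.

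Of other proteins that bind or edit double-stranded RNA, ZNFX1, a helicase that has been described as a sensor at mitochondria, fell in both comparisons (-1.29 and -1.44). Its call in miR-140-3p cells was lost with 4 of the 9 arrays left out singly, at adjusted p of up to 0.102 in limma. ADARB1, the second editing enzyme, fell by 0.98 in miR-126-5p cells (adjusted p = 0.0298) and had a difference of -0.59 in miR-140-3p cells (adjusted p = 0.366). ILF2, STAU1 and STAU2 lay between -0.31 and 0.30, and the list as a whole had 1 of 21 genes lower in miR-140-3p cells and 2 of 21 in miR-126-5p cells. None of 10 measured PKR regulators and eIF2 alpha pathway genes passed, including the related kinase EIF2AK1 at 0.15 and 0.03. None of 11 measured genes of cytosolic DNA sensing passed either. IFI16, a sensor of DNA in the nucleus and cytosol, had -0.77 in miR-140-3p cells (adjusted p = 0.171) and -0.85 in miR-126-5p cells (adjusted p = 0.077), and XRCC5 and XRCC6 lay between -0.06 and 0.07.

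**Figure D5:**
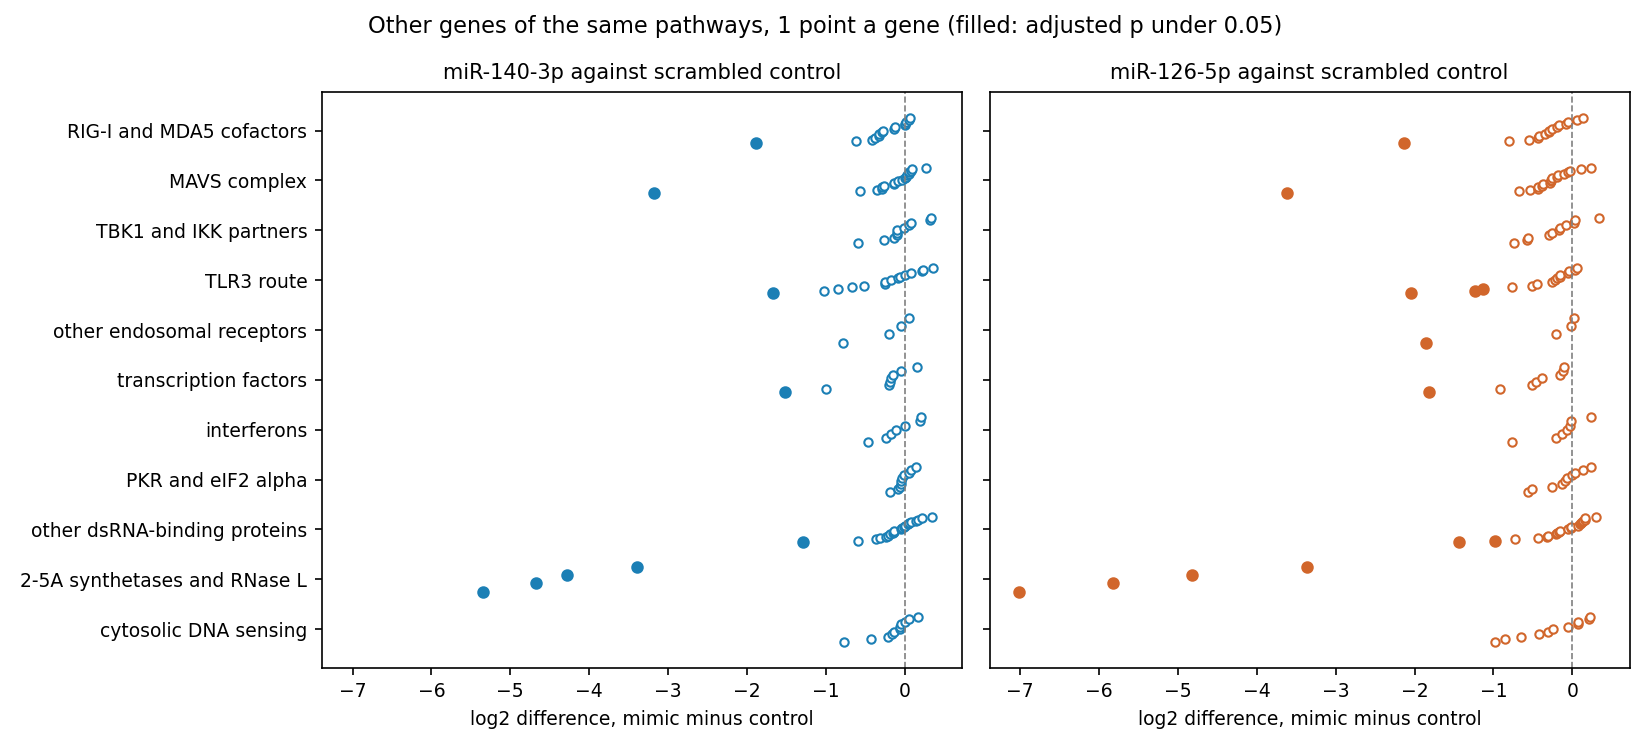
Log2 difference of each mimic from the scrambled control (horizontal axis) for the measured genes of 11 pathway lists (rows, 1 point a gene). Filled points passed an adjusted p of 0.05 over all rows: all 4 measured genes of the 2-5A synthetase family in both panels, and 1 to 3 genes in some of the other lists, while most points lie near 0.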

How the data were processed

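Total RNA of HCN-2 cells was hybridized to 9 Affymetrix arrays, 3 for each transfection. The chip is given as Clariom S in the methods of the study and as Clariom D in the deposited description, and the labels mention a step of RNA amplification. The authors deposited log2 values in 1 table with a column per array. The highest value in it, 19.932, was shared by up to 12 rows of an array, and every member value lay below it. What set this upper value was not tested, and the scale of the values was taken as given. RMA, Partek and Affymetrix Expression Console are named in the submitters' processing notes, without versions. RMA subtracts background, equalizes the distribution of the arrays and summarizes the probes of a row, so a shift shared by most genes would be removed and dim rows understate changes. No detection call or count depth comes with the values, and the number of arrays limits the precision.

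Of 138745 rows, 31 control rows were left out, 36176 had 1 symbol and were tested, 1119 had several and 101419 were not listed in the platform annotation. A gene was represented by its row with the highest mean. The 9 arrays were compared in 1 fit in limma 3.58.1 (R 4.3.3, prior degrees of freedom 6.32), two-sided, with 3 contrasts, 95% intervals from the moderated spread and no set test. The fit was tested on simulated data with 200 changed rows. Of the pathway lists, 122 of 136 genes had a row with 1 symbol and the rest were not analysed here. The text names all members, the called genes of the lists and up to 3 of the brightest uncalled genes of a list. The members, the lists and the rule for naming genes were chosen with earlier results of these data known. The alternatives are under the processing part of the closing section. Promoter and microRNA sequences came from RefSeq tables in GRCh38.p14.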

Additional observations from a re-analysis of the deposited data

How the results depend on the processing

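The 5 falls of RIGI, IFIH1, DHX58, TLR3 and EIF2AK2 kept their direction in both comparisons under all 22 alternatives run, and their calls except as follows. Without moderation of the variance, limma's 5 and 5 calls became 0 and 0, the 9 and 13 calls among pathway genes 0 and 0, and the 86 and 137 calls over all rows 0 and 0. Testing every row of the table left 2 pathway genes and 55 rows with miR-140-3p and lost EIF2AK2 there (adjusted p = 0.0971). At the unadjusted p and fold, pathway genes passing numbered 20, 37 and, between the mimics, 13, and rows 3081, 3763 and 3277. With miR-126-5p an intensity trend with robust estimation gave 214 rows, the filter on dim rows 226, array weights 216 and control array 1 and miR-126-5p array 3 left out together, a setting chosen after seeing the data, 231 (116 with miR-140-3p). ADAR passed with miR-126-5p under these settings and under median centring, at adjusted p values in limma of 0.0169 (trend), 0.0297 (dim rows), 0.0219 (weights), 0.000788 (2 arrays out) and 0.0343 (centring). With 1 array left out, the adjusted p of ADAR in miR-126-5p cells ran from 0.00343 to 0.319 in limma. Leaving out 1 array at a time gave 4 to 6 members with miR-140-3p and 5 to 6 with miR-126-5p, 2 to 9 and 9 to 15 pathway genes, and 46 to 124 and 80 to 304 rows, with 0 between the mimics. The low counts came with control array 2 or 3 or array 2 or 3 of miR-140-3p, or array 1 or 2 of miR-126-5p, left out, and 304 came without control array 1. The cause was not tested.

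Signs turned only for small differences that passed no test. With 1 array left out, or those 2 arrays together, differences that changed sign ran from -0.34 to 0.13 for TICAM1 and from -0.12 to 0.09 for TBK1 in miR-140-3p cells against the control. In miR-126-5p cells they ran from -0.48 to 0.00 for TICAM1 and from -0.17 to 0.04 for TBK1. Between the mimics they ran from -0.06 to 0.43 for DHX58, from -0.08 to 0.13 for TLR3, from -0.01 to 0.21 for MAVS and from -0.03 to 0.12 for TBK1. Quantile normalization run again gave 0.11 for TBK1 in miR-126-5p cells and, between the mimics, -0.04 for both TLR3 and TBK1. MAVS by its row with an Entrez identifier gave -0.15 in miR-126-5p cells.

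The titles number the arrays 1 to 3 in each group, but same-numbered arrays did not deviate together (correlations of -0.061 to 0.107), so the numbers were not taken as pairs. With the replicate number as a block, 5 and 5 members, 8 and 12 pathway genes and 77 and 121 rows passed, and 0 between the mimics. Limits are 3 arrays a group, no untransfected cells, 1 time point and no protein or editing readout. Signals were also dim for TICAM1, IRF3, the interferons and, in mimic cells, IRF7.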
